A study of Mus musculus with 10 samples.

Results

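The autosomal histone lysine demethylase genes Kdm1a, Kdm1b, Kdm2b, Kdm3a, Kdm3b, Kdm4a, Kdm4b, Kdm4c, Kdm5b and Kdm6b were followed through RNA-seq of mouse pluripotent and germline cells. These 10 genes were taken by symbol from the 36066 genes of the table. All 10 passed the filter on low values, which asked for 0.1 TPM or more in 2 libraries. TPM are read counts per length of gene, brought to one total in every library, so levels of different genes can be set side by side.

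All cells were labelled C57BL6, and each of 5 groups had 2 libraries. ESCs were a female embryonic stem cell line, and pESCs were a parthenogenetic line, which comes from oocytes activated without sperm and holds only maternal chromosomes. ESC-PGCLCs and pESC-PGCLCs were primordial germ cell-like cells made from these lines by way of epiblast-like cells, with a last step of 4 days in which LIF stood at 1000 IU, EGF at 50 ng/ml, SCF at 100 ng/ml and BMP4 at 500 ng/ml, and the study sorted them for the surface markers SSEA1 and CD61. PGCs were primordial germ cells of female embryos, sorted in the study by the same markers or by SSEA1 alone, and the labels of these libraries give no embryonic day. The labels do not say whether the libraries of a group came from separate cultures or embryos, so the p-values measure only the spread between these libraries. In bulk libraries of this kind, fewer cells of a type and less RNA per cell cannot be told apart.

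Histone lysine demethylases take methyl groups off lysines of histone tails. KDM1A (LSD1) and KDM1B (LSD2) are flavin-dependent amine oxidases that act on H3K4, a mark of promoters and enhancers, whereas the other enzymes carry a JmjC domain and use iron and alpha-ketoglutarate. Of these, KDM5B acts on H3K4, KDM2B on H3K36, KDM3A and KDM3B on H3K9, the KDM4 enzymes on H3K9 and H3K36, and KDM6B on H3K27, the mark set by Polycomb. Primordial germ cells are known for the loss of DNA methylation and of H3K9 dimethylation, and KDM1B is known for its need in growing oocytes when maternal DNA methylation imprints are set.

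Recovered reads on genes lay between 6779838 (ESC-PGCLC replicate 2) and 18572901 (ESC replicate 2). For exons of 2183 nt, the median length, 3 reads equal 0.116 to 0.338 TPM, a floor that covers counting error only. The 9 germ cell markers summed to 407 to 433 TPM in ESCs, 752 to 931 in pESCs, 7664 to 7900 in ESC-PGCLCs, 5995 to 6343 in pESC-PGCLCs and 5457 to 6713 in PGCs. The 7 pluripotency markers summed to 621 to 1011 TPM in stem cells and 134 to 220 elsewhere. Alone of these, Sox2 was higher in ESC-PGCLCs (97.3 and 110 TPM) and PGCs (83.4 and 75.1) than in ESCs (32.7 and 44.6). The 8 blood cell markers summed to at most 4.44 TPM in stem cells, 492 to 562 in ESC-PGCLCs, 2902 to 3438 in pESC-PGCLCs and 1988 to 2200 in PGCs, where 7 or 8 of the 8 had at least 1 TPM. The 7 measured gonadal somatic markers summed to at most 5.66 TPM in stem cells, 22.6 to 26.8 in ESC-PGCLCs, 40.2 to 44.6 in pESC-PGCLCs and 76.3 to 92.6 in PGCs. The 7 fibroblast markers summed to at most 0.512 TPM in stem cells, 3.91 to 4.15 in ESC-PGCLCs, 7.63 to 9.41 in pESC-PGCLCs and 9.25 to 10.9 in PGCs. Blood, gonadal and fibroblast markers thus move with the step from stem cells to PGCLCs as well as with differences among the germline groups. The part of these cells in the results was not tested.

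Differences were fitted with limma on log2(TPM + 1), a scale that understates the change of genes with few TPM, with the spread taken from all 10 libraries. A gene was called when its Benjamini-Hochberg adjusted p over the 27259 genes tested was under 0.05 and its change was at least 2-fold. The smallest p of an exact permutation test of 2 against 2 libraries is 0.333, and the adjusted p-values come from the variance model of limma. As TPM share a fixed total, each comparison is given with the median change of all genes. That median includes many genes of few TPM, so it can lie under the shift of genes at the level of most members.

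The members with the widest range of group means were Kdm1b, Kdm2b and Kdm6b, with 2.69, 1.97 and 1.91 between the highest and lowest group on the log2(TPM + 1) scale. Kdm4a had the narrowest, 0.43. Upstream sequences are shown for Kdm1b and Kdm2b, which were called higher in both kinds of PGCLC than in their stem cells, and for Kdm1a, which was called higher in pESC-PGCLCs only. They are the bases before an annotated start that lie outside annotated exons, from RefSeq (GRCm38.p6), written 5′ to 3′ on the strand of the gene, with every CCAAT and GGGCGG on either strand in capitals.
Kdm1b (chr13:47043344-47043498, plus strand, 155 bases): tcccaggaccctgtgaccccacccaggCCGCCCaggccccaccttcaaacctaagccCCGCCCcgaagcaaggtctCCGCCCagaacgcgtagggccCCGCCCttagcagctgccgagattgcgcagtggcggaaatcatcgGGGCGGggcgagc
Kdm1a (chr4:136602724-136602973, minus strand, 250 bases): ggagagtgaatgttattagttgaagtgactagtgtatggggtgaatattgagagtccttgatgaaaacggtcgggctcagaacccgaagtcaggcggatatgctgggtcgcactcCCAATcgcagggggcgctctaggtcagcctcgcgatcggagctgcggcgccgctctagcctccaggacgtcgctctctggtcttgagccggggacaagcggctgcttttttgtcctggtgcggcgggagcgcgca
Kdm2b (chr5:122900368-122900617, minus strand, 250 bases, an internal start): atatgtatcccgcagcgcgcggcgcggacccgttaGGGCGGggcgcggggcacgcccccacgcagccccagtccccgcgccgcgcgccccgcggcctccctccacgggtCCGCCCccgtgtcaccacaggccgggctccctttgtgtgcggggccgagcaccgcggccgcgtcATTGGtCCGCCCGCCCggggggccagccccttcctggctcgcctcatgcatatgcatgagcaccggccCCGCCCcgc

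In the whole 250 bases before the start, Kdm1b held 6 copies of GGGCGG, the box known to be bound by Sp factors, no CCAAT, and 22 CG pairs. Kdm1a held 1 CCAAT, no GGGCGG and 21 CG pairs, and the internal start of Kdm2b held 5 GGGCGG, one pair of them overlapping, 1 CCAAT and 36 CG pairs. Kdm2b had 4 such windows, and the one shown has no annotated exon base in it. The other windows held 0, 1 and 6 GGGCGG and 12, 27 and 38 CG pairs. Among 32851 promoter windows of the same length, 33.8% held a CCAAT, 32.7% a GGGCGG, 12.4% a TATAAA and 6.02% a CACGTG, on either strand, and the median number of CG pairs was 6. Neither TATAAA nor CACGTG occurred in these windows of Kdm1a, Kdm1b and Kdm2b. In all, 7 of the 10 genes matched an entry. Kdm3b, Kdm4b and Kdm6b are named only. These matches describe letters, not bound sites.

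Kdm1b, on chromosome 13 (47043499 to 47085279, plus strand, GRCm38), was the most abundant member in every library. Its level was 32.3 and 35.7 TPM in ESCs, 21.0 and 33.6 in pESCs, 165 and 178 in ESC-PGCLCs, 109 and 120.1 in pESC-PGCLCs, and 149.7 and 209 in PGCs. All 6 germline libraries lay above all 4 stem cell libraries, whereas PGCs and ESC-PGCLCs overlapped, as did ESCs and pESCs. Against their stem cells, ESC-PGCLCs were higher by 2.30 ± 0.24 (log2 fold change ± SE, limma adjusted p = 0.000133) and pESC-PGCLCs by 2.07 ± 0.24 (limma adjusted p = 0.00029). Both calls held under every other scaling and without any library, at 2.23 to 2.37 and 1.74 to 2.40 when a library was left out. Kdm1b was lower in pESC-PGCLCs than in ESC-PGCLCs without overlap, but the change of -0.58 ± 0.24 missed the threshold (limma adjusted p = 0.125). It was -0.93 under quantile normalization (limma adjusted p = 0.011), -0.99 under median centring (limma adjusted p = 0.00944) and -0.68 with voom (adjusted p = 0.0121), past the adjusted p but under 2-fold.

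Kdm1a, on chromosome 4 (136550540 to 136602723, minus strand), differed between the kinds of PGCLC. Its level was 10.4 and 9.92 TPM in ESCs, 8.37 and 9.31 in pESCs, 10.8 and 10.9 in ESC-PGCLCs, 23.2 and 22.1 in pESC-PGCLCs, and 28.5 and 25.5 in PGCs. ESC-PGCLCs lay just above the stem cells, and no library of pESC-PGCLCs or PGCs overlapped with any of the other groups. The change from pESCs to pESC-PGCLCs was 1.27 ± 0.13 (limma adjusted p = 0.000172), against 0.09 ± 0.13 from ESCs to ESC-PGCLCs (limma adjusted p = 0.64). The difference between these changes, tested as an interaction, was 1.18 ± 0.19 (limma adjusted p = 0.00352), and 1.11 to 1.25 when a library was left out. The increase in pESC-PGCLCs fell below 2-fold under quantile normalization (0.63) and under centring on the median of genes expressed everywhere (0.54), and the interaction fell to 0.56 and 0.44, with limma adjusted p = 0.0471 and 0.0656.

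The ratio of Kdm1b to Kdm1a within a library is unchanged by a common factor on its TPM, though quantile normalization can alter it. It was 3.10 and 3.60 in ESCs, 2.50 and 3.61 in pESCs, 15.3 and 16.4 in ESC-PGCLCs, 4.70 and 5.44 in pESC-PGCLCs, and 5.25 and 8.20 in PGCs. ESC-PGCLCs had the highest ratios, above both pESC-PGCLC and both PGC libraries. Kdm1b made up 31.5% to 38.9% of the summed TPM of the 10 genes in the stem cell libraries, 74.1% and 75.1% in ESC-PGCLCs, 58.0% and 59.7% in pESC-PGCLCs, and 56.4% and 67.2% in PGCs. The sum itself was 66.6 to 91.8 TPM in stem cells and 188 to 310.5 TPM in the germline libraries, while the sum of the other 9 genes was 45.6 to 59.2 TPM in stem cells and 57.9 and 59.0 TPM in ESC-PGCLCs.

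**Figure D1:**
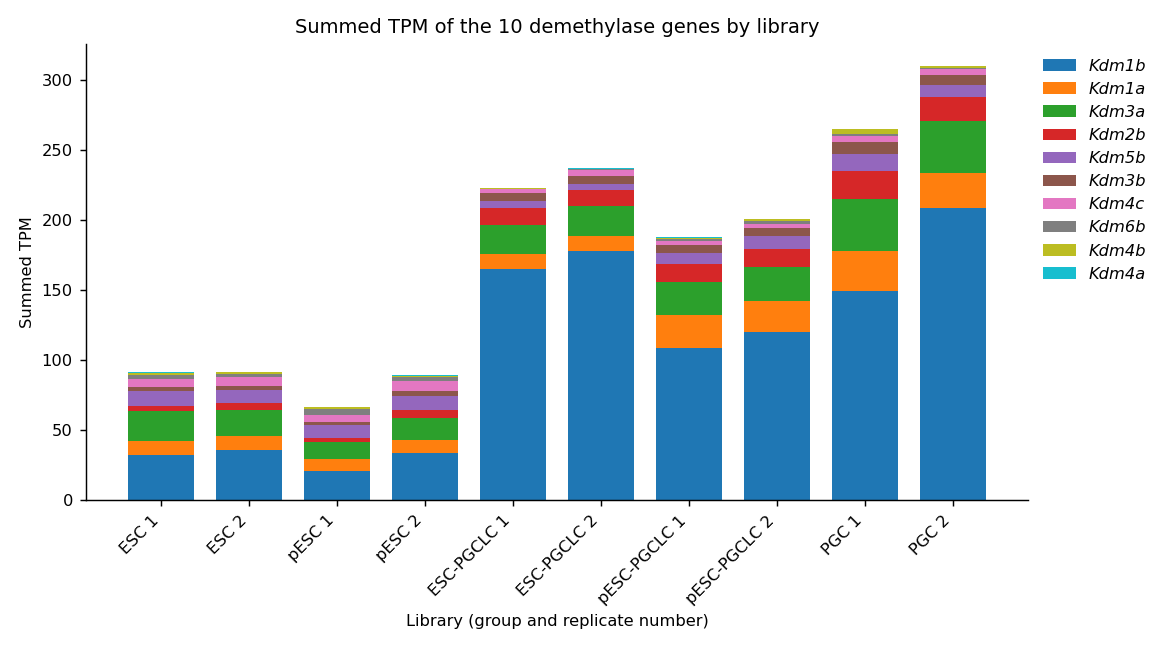
Stacked bars give the summed TPM of the 10 genes in each of the 10 libraries, one colour per gene, with Kdm1b at the base. The Kdm1b segment holds 31.5% to 38.9% of the bar in stem cells and 56.4% to 75.1% in the germline libraries.

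Reads of Kdm1b and of Dek, which encodes a chromatin protein and lies on the opposite strand, cannot be told apart where their exons overlap, because the kit named in the labels does not mark strand. The overlap covers 505 bases, 9.19% of the exon length of Kdm1b. Dek had 80.9 to 135 TPM in stem cells and 301 to 427 TPM in the germline libraries, so the genes moved together. The ratio of Kdm1b to Dek was 0.239 to 0.272 in stem cells, 0.417 and 0.418 in ESC-PGCLCs, 0.362 and 0.345 in pESC-PGCLCs, and 0.491 and 0.495 in PGCs. It was thus higher in every germline library than in every stem cell library.

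Kdm5b, on chromosome 1 (134560171 to 134635285, plus strand), encodes a JmjC enzyme that removes H3K4 trimethylation. Its level was 10.4 and 9.45 TPM in ESCs, 9.05 and 10.6 in pESCs, 4.50 and 4.33 in ESC-PGCLCs, 8.23 and 9.68 in pESC-PGCLCs, and 12.1 and 8.59 in PGCs. ESC-PGCLCs were the lowest group, and the other 4 groups overlapped with their neighbours in the order of levels. The change from ESCs to ESC-PGCLCs was -1.01 ± 0.19 (limma adjusted p = 0.00289), just past 2-fold. It fell under 2-fold without ESC replicate 1 (-0.95), without ESC-PGCLC replicate 2 (-0.99) and under median centring (-0.9997), with the adjusted p still under 0.05. PGCs were higher than ESC-PGCLCs by 1.05 ± 0.19 (limma adjusted p = 0.0061), a call lost under quantile normalization (0.47), under median centring (0.45) and without PGC replicate 1 (0.83). In ESC-PGCLCs the level of Kdm5b was thus low where that of Kdm1b, which also acts on H3K4, was high. The ratio of Kdm1b to Kdm5b was 36.8 and 41.1 there against 2.32 to 3.78 in stem cells. It was also above stem cells in pESC-PGCLCs (13.3 and 12.4) and in PGCs (12.3 and 24.3).

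Kdm2b, on chromosome 5 (122870665 to 122989823, minus strand), encodes an H3K36 demethylase whose CXXC domain binds unmethylated CG pairs and brings the variant Polycomb complex PRC1.1 to CpG islands. Its level was 3.93 and 4.61 TPM in ESCs, 3.25 and 5.03 in pESCs, 12.4 and 11.3 in ESC-PGCLCs, 12.7 and 12.6 in pESC-PGCLCs, and 20.7 and 17.1 in PGCs. Stem cells were lowest, PGCLCs higher and PGCs highest, with no overlap between these 3 levels. From stem cells to PGCLCs the change was 1.29 ± 0.20 in ESCs (limma adjusted p = 0.00106) and 1.44 ± 0.20 in pESCs (limma adjusted p = 0.000696). The first call held under every other scaling, and the second fell below 2-fold under quantile normalization (0.78) and median centring (0.71). Between PGCs and ESC-PGCLCs the change of 0.62 ± 0.20 passed limma's adjusted p (0.0464) without reaching 2-fold, and it was 0.06 under quantile normalization (limma adjusted p = 0.893) and 0.02 under median centring (limma adjusted p = 0.932). Transcripts of Kdm2b shared 4.83% of their 100-base stretches with Gm12397 and Gm44574, and its exons overlap those of Rnf34 over 5.77% of their length, so a small part of its reads may belong elsewhere.

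Kdm3a and Kdm3b encode H3K9 demethylases that act on mono- and dimethyl lysine. Kdm3a, on chromosome 6 (71588972 to 71632990, minus strand), had 20.9 and 19.2 TPM in ESCs, 12.1 and 16.2 in pESCs, 20.4 and 21.4 in ESC-PGCLCs, 23.5 and 24.6 in pESC-PGCLCs, and 36.7 and 36.9 in PGCs. PGCs were the highest group and pESCs the lowest, each without overlap with the next group. Kdm3b had 2.74 and 2.91 TPM in ESCs, 2.27 and 3.06 in pESCs, 5.67 and 5.98 in ESC-PGCLCs, 5.48 and 5.23 in pESC-PGCLCs, and 8.12 and 7.31 in PGCs. All 6 germline libraries lay above all 4 stem cell libraries.

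Neither H3K9 gene was called in any comparison, since their changes stayed under 2-fold. Kdm3a changed by 0.74 ± 0.16 from pESCs to pESC-PGCLCs (limma adjusted p = 0.00568) and by 0.79 ± 0.16 from ESC-PGCLCs to PGCs (limma adjusted p = 0.00852). Both depend on the scaling, with 0.13 and 0.32 under quantile normalization (limma adjusted p = 0.368 and 0.0812) and 0.01 and 0.18 under median centring (limma adjusted p = 0.967 and 0.233). Kdm3b changed by 0.84 ± 0.16 from ESCs to ESC-PGCLCs (limma adjusted p = 0.00361) and by 0.80 ± 0.16 from pESCs to pESC-PGCLCs (limma adjusted p = 0.00473). The change in ESC-PGCLCs was 0.71 under quantile normalization and 0.85 under median centring, and 1.02, which was called, with a pseudocount of 0.1. The change in pESC-PGCLCs was 0.15 under quantile normalization (limma adjusted p = 0.379) and 0.07 under median centring (limma adjusted p = 0.656). The exons of Kdm3b overlap Gm26538, a lincRNA on the opposite strand with 1.01 to 4.99 TPM, over 24.6% of their length, and reads there cannot be told apart.

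Kdm4a, Kdm4b and Kdm4c encode enzymes that remove trimethyl marks from H3K9 and H3K36, and Kdm4c was the most abundant of them. Kdm4c, on chromosome 4 (74242497 to 74405860, plus strand), had 6.26 and 6.30 TPM in ESCs, 5.20 and 7.31 in pESCs, 3.18 and 4.18 in ESC-PGCLCs, 2.66 and 2.96 in pESC-PGCLCs, and 4.25 and 3.86 in PGCs. It was the only member whose 6 germline libraries all lay below all 4 stem cell libraries. The changes in PGCLCs were -0.65 ± 0.19 against ESCs (limma adjusted p = 0.0264) and -0.91 ± 0.19 against pESCs (limma adjusted p = 0.00585), both under 2-fold. The latter was called, with a decrease past 2-fold, with a pseudocount of 0.1 (-1.11), under quantile normalization (-1.55), under median centring (-1.65), with voom on recovered reads (-1.42) and without pESC replicate 1 (-1.13).

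Kdm4b, on chromosome 17 (56326062 to 56402870, plus strand), had 1.46 and 1.46 TPM in ESCs, 0.907 and 1.11 in pESCs, 0.515 and 0.251 in ESC-PGCLCs, 1.25 and 1.54 in pESC-PGCLCs, and 3.36 and 1.33 in PGCs. The ESC-PGCLC values rest on 12 and 5 recovered reads, and the PGC libraries differ widely. Against ESC-PGCLCs, PGCs were higher by 1.21 ± 0.28 (limma adjusted p = 0.016), a call that was lost when only the compared groups were fitted (limma adjusted p = 0.0762), under quantile normalization (0.78), under median centring (0.61), without ESC-PGCLC replicate 2 (1.07) and without PGC replicate 1 (0.76). From ESCs to ESC-PGCLCs the change of -0.84 ± 0.28 (limma adjusted p = 0.0425) was under 2-fold, and it passed 2-fold with a pseudocount of 0.1 (-1.75), under quantile normalization (-1.01) and with voom (-1.98). Kdm4a, on chromosome 4 (118136957 to 118180043, minus strand), stayed between 0.118 and 0.542 TPM, with 4 to 28 recovered reads a library, and limma passed no difference of Kdm4a between groups on the deposited scale. Under median centring the change from pESCs to pESC-PGCLCs was -0.54 (limma adjusted p = 0.0174) and the interaction -0.68 (limma adjusted p = 0.0396), both under 2-fold.

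Kdm6b, on chromosome 11 (69398508 to 69413675, minus strand), encodes the H3K27 demethylase JMJD3. Its level was 2.81 and 2.04 TPM in ESCs, 4.39 and 2.77 in pESCs, 0.181 and 0.212 in ESC-PGCLCs, 1.44 and 2.05 in pESC-PGCLCs, and 1.49 and 0.70 in PGCs. ESC-PGCLCs stood below every other library, with 6 and 6 recovered reads against 44 to 268 elsewhere. The change from ESCs to ESC-PGCLCs was -1.51 ± 0.27 (limma adjusted p = 0.00223), a call that held under every other scaling and without any library. From pESCs to pESC-PGCLCs the change was -0.73 ± 0.27 (limma adjusted p = 0.059), and it was called under quantile normalization (-1.33), under median centring (-1.46) and with voom (-1.29). The interaction of 0.78 ± 0.38 missed the threshold (limma adjusted p = 0.189), whereas it was called with a pseudocount of 0.1 (2.09, limma adjusted p = 0.0402) and with voom (2.26, adjusted p = 0.0361), and was 0.37 and 0.04 under quantile normalization and median centring. Whether the decreases differ thus depends on the processing.

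Between the kinds of PGCLC, Kdm6b was higher in pESC-PGCLCs by 1.19 ± 0.27 (limma adjusted p = 0.0155). This call was lost under median centring (0.78) and without ESC-PGCLC replicate 1 (limma adjusted p = 0.0639), ESC-PGCLC replicate 2 (limma adjusted p = 0.063) or pESC-PGCLC replicate 2 (limma adjusted p = 0.0965). The antisense gene Kdm6bos overlaps 4.11% of the exons of Kdm6b and had at most 2.05 TPM.

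**Figure D2:**
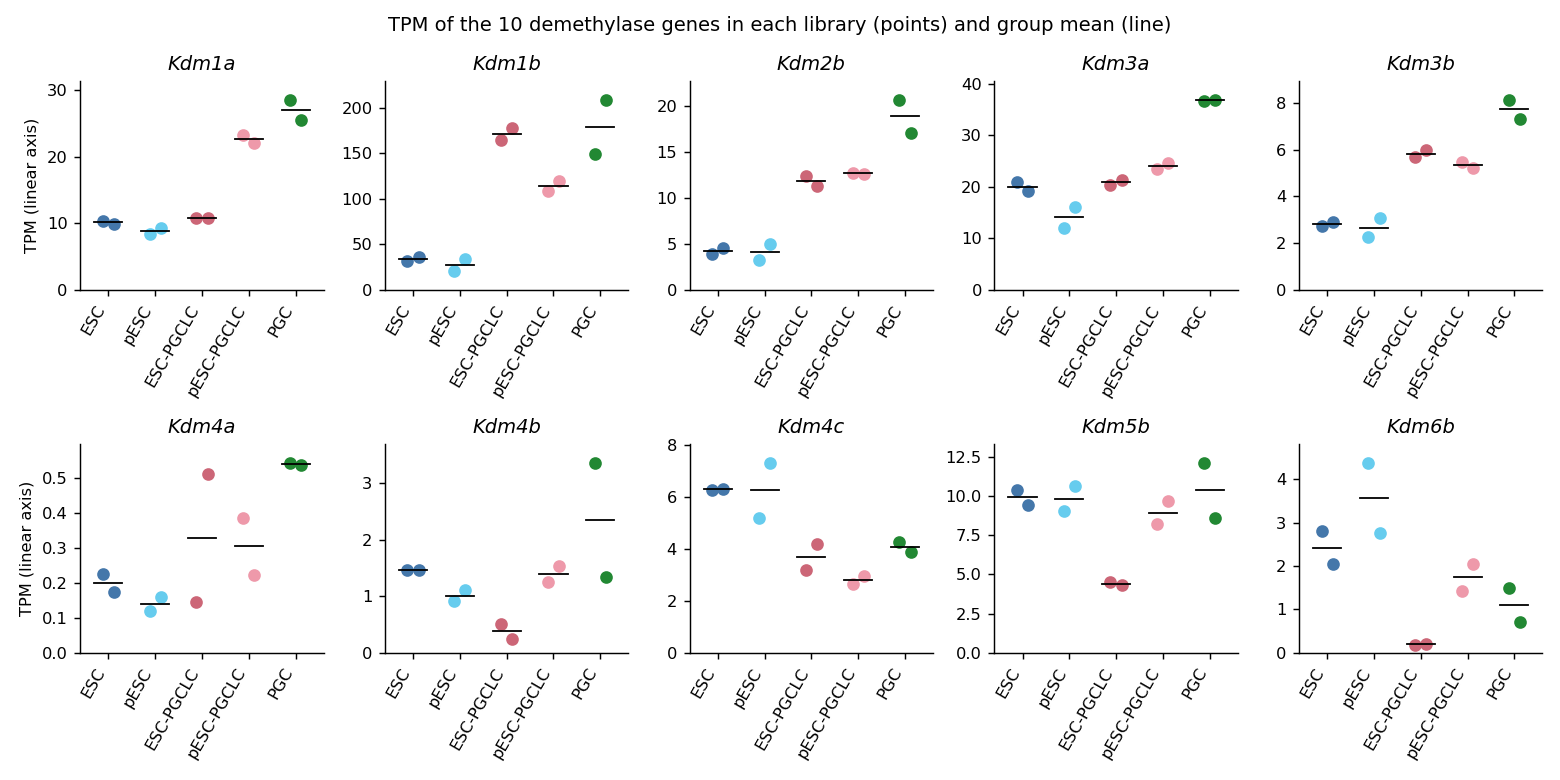
Each panel plots TPM on a linear axis from 0 for 1 gene, with a point for each of the 2 libraries of a group and a line at their mean. Kdm1b, Kdm2b and Kdm3b lie higher in all 6 germline libraries than in all 4 stem cell libraries, and Kdm4c lies lower. Kdm1a lies higher as well, but in ESC-PGCLCs only narrowly (10.8 and 10.9 TPM against 10.4 and 9.92 in ESCs). The share of all genes that separate in this way was not counted. Kdm5b and Kdm6b are lowest in ESC-PGCLCs.

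Read as comparisons, differentiation from ESCs to ESC-PGCLCs gave 2 members called higher (Kdm1b and Kdm2b) and 2 called lower (Kdm5b and Kdm6b) of 10, beside 15.3% of all genes called higher and 14.5% called lower. In all, 7 members passed the adjusted p without a fold minimum, beside 46.4% of all genes. The median change was 0.07 for the members and 0.05 for all genes, and the share of members called in each direction is near the background.

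From pESCs to pESC-PGCLCs, 3 members were called higher (Kdm1a, Kdm1b and Kdm2b), beside 20.8% of all genes, and none lower, beside 6.8%. In this comparison 6 members passed the adjusted p without a fold minimum, beside 44.6% of all genes, and the median change was 0.49 for the members against 0.22 for all genes. The counts called higher and past the adjusted p are within 1 or 2 genes of the background, and none was called lower, so these shares are near it. Median centring moved the median of all genes from 0.22 to -0.51, so genes with 1 TPM or more everywhere had risen more than all genes. The 0.22 is therefore a low baseline for the members, most of which were such genes. Under median centring Kdm1b was called higher and Kdm4c and Kdm6b lower, and quantile normalization called the same genes. Kdm1b was therefore the one member called higher against its stem cells in both kinds of PGCLC under every scaling used.

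The interaction asked whether differentiation changed a gene differently in cells of parthenogenetic and of fertilized origin. Kdm1a was the 1 member called, in the higher direction, beside 15.5% of all genes called higher and 3.53% lower. Kdm5b passed the adjusted p as well, with 0.89 ± 0.27 (limma adjusted p = 0.0484), which makes 2 members without a fold minimum, beside 22.9% of all genes. Kdm5b changed by -0.12 from pESCs to pESC-PGCLCs and by -1.01 from ESCs to ESC-PGCLCs. The median interaction was 0.41 for members and 0.21 for all genes. Median centring moved the latter to -0.54, so the 0.21 is likewise a low baseline for the members. Under that scaling the Kdm1a interaction was 0.44 and that of Kdm5b 0.15 (limma adjusted p = 0.614), after 0.29 under quantile normalization (limma adjusted p = 0.398). The member called under median centring was Kdm4c, in the lower direction (-1.01). Kdm4b had 1.09 ± 0.40 (limma adjusted p = 0.0922) and was called with the compared groups alone, with voom, and without PGC replicate 1 or 2. The share of members called was not above the background.

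**Figure D3:**
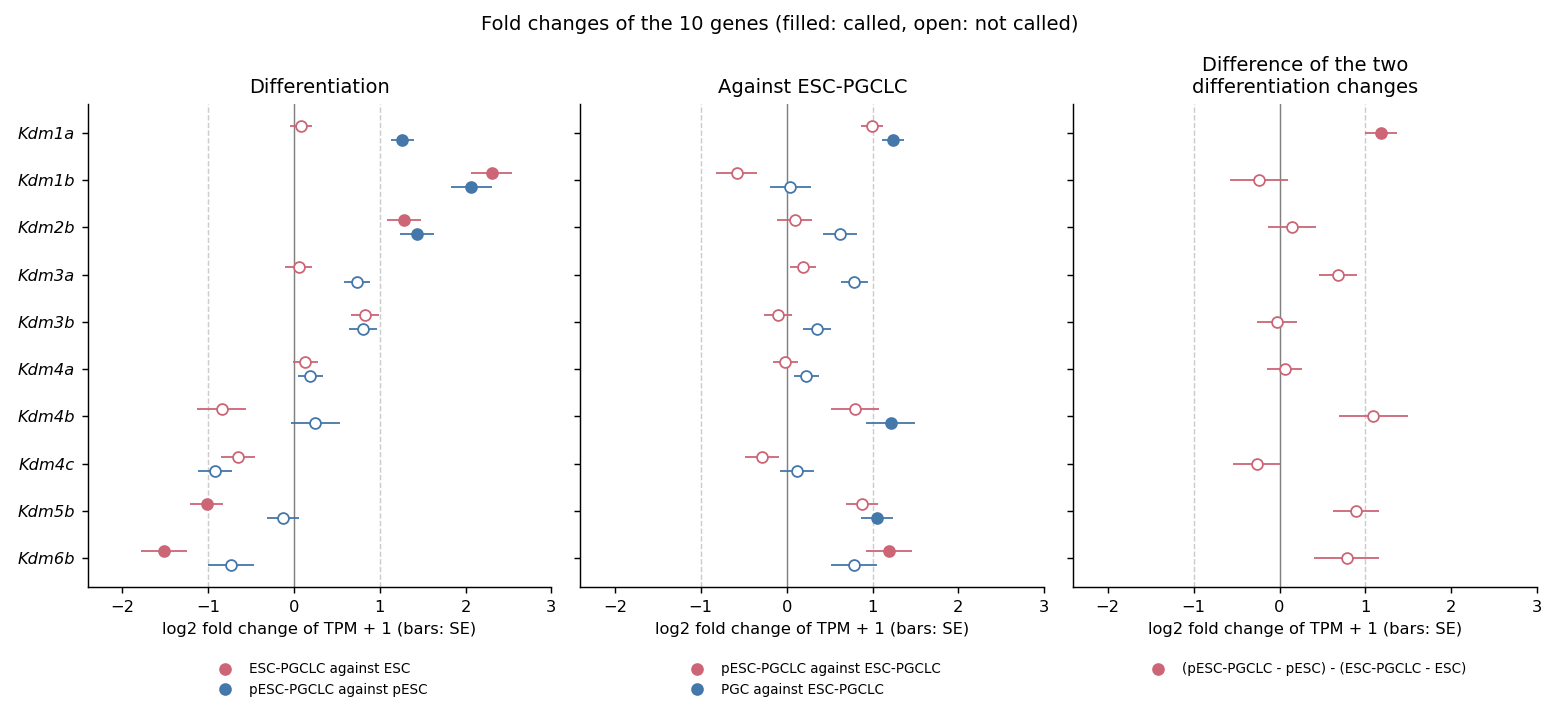
Points give log2 fold changes of TPM + 1 with their SE for the 10 genes, for differentiation of ESCs and pESCs (left), pESC-PGCLCs and PGCs against ESC-PGCLCs (middle) and the interaction (right). Filled points were called, and the dashed lines mark 2-fold. Kdm1b and Kdm2b were called higher in both differentiations, and Kdm1a (1.27 against 0.09) in that of pESCs alone.

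Comparisons within the germline groups share the ESC-PGCLC libraries, so their values are set side by side. Against ESC-PGCLCs, pESC-PGCLCs had 1 member called higher (Kdm6b), beside 10.3% of all genes called higher and 3.08% lower, and 3 past the adjusted p without a fold minimum, beside 23.8% of all genes. The others of these were Kdm5b (0.87 ± 0.19, limma adjusted p = 0.0131) and Kdm1a, whose 1.99-fold change lay just under the 2-fold limit (limma adjusted p = 0.0015). Without pESC-PGCLC replicate 2 the change of Kdm1a was 1.03 and was called, while it was 0.65 under quantile normalization and 0.59 under median centring. That of Kdm5b was 0.55 under quantile normalization (limma adjusted p = 0.033) and 0.47 under median centring (limma adjusted p = 0.0529). PGCs had 3 members called higher than ESC-PGCLCs (Kdm1a, Kdm4b and Kdm5b), beside 12% of all genes called higher and 1.88% lower, and 5 past the adjusted p without a fold minimum, beside 31.1% of all genes. Kdm1a was higher by 1.24 ± 0.13 (limma adjusted p = 0.00137), which became 0.76 under quantile normalization and 0.63 under median centring. Under both of these scalings no member was called in this comparison, and only Kdm1a was called without PGC replicate 1. With 10 members, 3 calls beside 12% of all genes do not set the members apart from the background, and these scalings left no call. All 10 members had positive changes in PGCs on the deposited scale, with a median of 0.70 against 0.27 for all genes. The share of all genes with positive changes was not counted. Median centring moved the median of all genes to -0.34, so the 0.27 is a low baseline here as well. Kdm1b (-0.56), Kdm4c (-0.49), Kdm4a (-0.38) and Kdm3b (-0.25) were negative under median centring. Under quantile normalization Kdm1b, Kdm4c and Kdm3b were negative.

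No member was called between PGCs and pESC-PGCLCs, where limma called 3.67% of all genes in either direction. In this comparison 4 members had an unadjusted p under 0.05, beside 29.2% of all genes, and voom on recovered reads called 0. The lowest adjusted p was that of Kdm3a (0.60 ± 0.16, limma adjusted p = 0.0538). Kdm3a and Kdm1b passed the adjusted p under 2-fold with voom (adjusted p = 0.0173 and 0.0269) and under quantile normalization (limma adjusted p = 0.0272 and 0.0434), and not under median centring (limma adjusted p = 0.065 and 0.228). No member was called between pESCs and ESCs either, where limma called 0.781% of all genes in either direction. There 1 member, Kdm3a, had an unadjusted p under 0.05, beside 17.7% of all genes (-0.49 ± 0.16, limma adjusted p = 0.148), and voom called 0. A p that misses the threshold does not show that the levels are the same.

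Genes that work with these enzymes, or that set the marks they remove, were described from 7 lists with 60 of 62 genes tested. From ESCs to ESC-PGCLCs 17 of them were called higher and 5 lower, and from pESCs to pESC-PGCLCs 30 and 2. Of all genes, 15.3% and 14.5% were called higher and lower in the first comparison and 20.8% and 6.8% in the second, with all-gene medians of 0.05 and 0.22. Under median centring the first counts stayed at 17 and 5, but the second became 8 and 8, and under quantile normalization the counts were 17 and 7, and 11 and 4. The direction of the lists in pESC-PGCLCs thus depends on the scaling, and the genes below without a remark were called under both scalings.

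The list of other demethylases and related JmjC genes, which also holds oxygenases such as Riox2, had 15 genes tested. Of these, 3 were called higher and 1 lower in ESC-PGCLCs, and 8 and 1 in pESC-PGCLCs. The medians were 0.65 and 1.01 beside 0.05 and 0.22 for all genes. The 3 called higher of 15 are near the background of 15.3%. Kdm5a, like Kdm5b an H3K4 demethylase, changed by 2.22 and 1.86 (limma adjusted p = 1.89e-05 and 6.17e-05), from 4.98 to 6.09 TPM in the 4 stem cell libraries to 22.4 to 30.4 in the 4 PGCLC libraries. Kdm5a was thus higher in ESC-PGCLCs, where Kdm5b was lower. Kdm6a, the X-linked H3K27 demethylase related to Kdm6b, changed by 1.68 and 1.15 (limma adjusted p = 0.000995 and 0.00736), and its call in pESC-PGCLCs was lost under both scalings (0.48 and 0.41). Hspbap1, a JmjC gene named for binding the heat shock protein HSPB1, fell by 3.43 and 2.07 on the log2 scale (limma adjusted p = 8.32e-06 and 0.000111). Riox2, a ribosomal oxygenase, changed by 2.23 in pESC-PGCLCs (limma adjusted p = 2.68e-05).

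Among 12 partners of KDM1A and KDM1B, 3 were called higher and 1 lower in ESC-PGCLCs and 4 and 1 in pESC-PGCLCs, with medians of -0.06 and 0.70. Hdac1, a deacetylase of the CoREST complex, had 161 and 189.7 TPM in ESCs, 85.5 and 109.6 in pESCs, 10.1 and 11.4 in ESC-PGCLCs, and 14.3 and 15.8 in pESC-PGCLCs. It was lower by -3.91 and -2.61 (limma adjusted p = 2.85e-06 and 1.93e-05), whereas its paralog Hdac2 was higher by 1.18 and 1.72 (limma adjusted p = 0.000836 and 0.000148), with 0.99 in pESC-PGCLCs under median centring. Transcripts of Hdac1 shared 24.9% of their 100-base stretches with Gm10093, AC125456.1 and Gm4864, so its level is uncertain. Zmym2, a zinc finger partner of the complex, was higher by 2.54 and 2.57 (limma adjusted p = 3.51e-05 and 5.06e-05).

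The 9 partners of KDM2B in PRC1.1 had 3 genes called higher and 1 lower in ESC-PGCLCs and 3 and 0 in pESC-PGCLCs, with medians of 0.35 and 0.53. Yaf2, which binds the RING subunits, had 2.61 to 4.56 TPM in stem cells and 41.2 to 54.8 TPM in PGCLCs, a change of 3.63 and 3.64 (limma adjusted p = 9.97e-06 and 1.62e-05). Rnf2, the RING1B ubiquitin ligase, was higher by 1.14 and 1.56 (limma adjusted p = 0.000698 and 0.000172), with 0.83 in pESC-PGCLCs under median centring. Pcgf1, the subunit that defines PRC1.1, was lower in ESC-PGCLCs by -1.55 (limma adjusted p = 0.000213), although 5.03% of its 100-base stretches were shared with Gm8930. Bcor, the corepressor of the complex, was higher by 1.31 and 1.02 (limma adjusted p = 0.000406 and 0.00171), and its call in pESC-PGCLCs was lost under both scalings.

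The 7 H3K9 methyltransferase genes had the highest medians of the lists, 1.42 and 1.70, with 4 called higher in ESC-PGCLCs, 5 in pESC-PGCLCs and none lower. Setdb2 was higher by 2.17 and 2.33 (limma adjusted p = 9.75e-05 and 9.4e-05), Setdb1 by 1.44 and 1.85 (limma adjusted p = 0.000132 and 5.68e-05), and Suv39h2 by 1.43 and 2.25 (limma adjusted p = 0.00013 and 2.38e-05). Ehmt1, which pairs with EHMT2 to set H3K9 dimethylation, was higher by 1.42 and 1.70 (limma adjusted p = 0.000746 and 0.000347), with 0.97 in pESC-PGCLCs under median centring. Of 6 H3K36 methyltransferase genes, Nsd2 was higher by 2.50 and 2.55 (limma adjusted p = 3.14e-05 and 4.37e-05) and Nsd1 lower by -1.15 in ESC-PGCLCs (limma adjusted p = 0.00106).

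Of 9 H3K4 methyltransferase genes, 3 were called higher and 1 lower in ESC-PGCLCs and 4 and 0 in pESC-PGCLCs. Prdm9, which marks sites of meiotic recombination, was higher by 1.24 and 1.08 (limma adjusted p = 0.00168 and 0.00377), and Smyd3 was lower by -1.82 in ESC-PGCLCs (limma adjusted p = 0.000137). No H3K4 gene kept a call for an increase in pESC-PGCLCs under either scaling. Ezh1 and Ezh2, the H3K27 methyltransferases of Polycomb, were called in the differentiation of pESCs and not in that of ESCs. Their changes were 1.04 and 1.11 (limma adjusted p = 0.00172 and 0.00338), and these calls were lost under both scalings. Ezh1 was also called higher in PGCs against ESC-PGCLCs (1.18) and in the interaction (1.13), and lost these calls likewise.

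**Figure D4:**
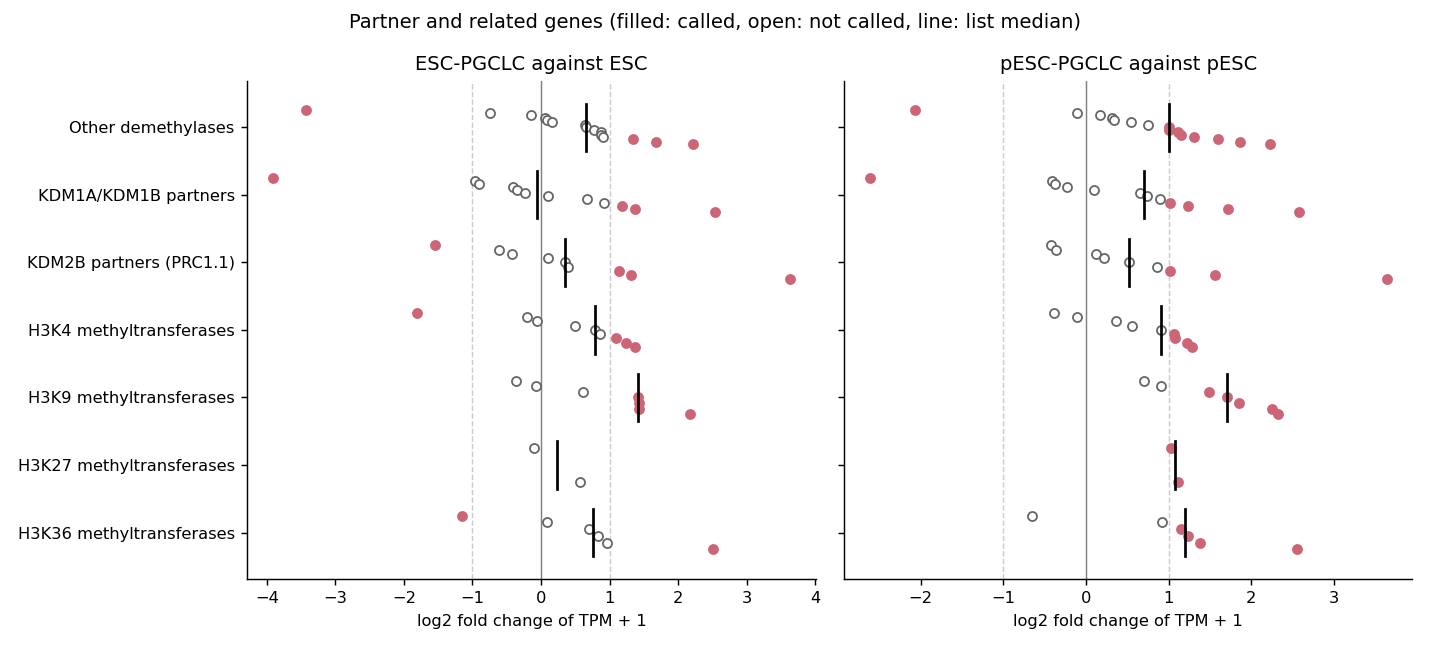
Points give log2 fold changes of TPM + 1 for the genes of the 7 lists in ESC-PGCLCs against ESCs (left) and pESC-PGCLCs against pESCs (right), filled where called, with a line at the median of each list. The H3K9 methyltransferases have the highest medians, 1.42 and 1.70, and Yaf2 lies farthest right at 3.63 and 3.64.

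In the other comparisons the lists gave 4 genes called higher and 0 lower in pESC-PGCLCs against ESC-PGCLCs, 8 and 1 in PGCs against ESC-PGCLCs, and 9 and 0 for the interaction, where 10.3% and 3.08%, 12% and 1.88%, and 15.5% and 3.53% of all genes were called. Median centring turned these into 1 and 0, 0 and 1, and 2 and 8. On the deposited scale limma called none between pESCs and ESCs or between PGCs and pESC-PGCLCs. For pESCs against ESCs voom called 0 as well. For PGCs against pESC-PGCLCs the settings differed in direction. Voom called 5 higher and 0 lower, whereas limma called 1 lower under quantile normalization and 2 lower under median centring, with 0 higher.

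The genes whose course over the 10 libraries was most like that of the members with the widest range were found among 14838 genes, by the root mean square difference of log2(TPM + 1) after each gene was set to its own mean. For Kdm1b these were Ube2d2a (0.119), Hnrnpr (0.12) and Clint1 (0.121). Golga3 (0.0994), Cdc27 (0.101) and Arid2 (0.102) were nearest to Kdm2b. Kdm6b had no neighbour as close, with Mir5121 at 0.177, Gm9797 at 0.206 and Gm15163 at 0.209.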

How the data were processed

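RNA-seq of 10 mouse libraries was used, 2 in each of 5 groups taken from the sample titles. The authors mapped reads to mm10 with Hisat2 and counted them on genes, and they deposited TPM. The submitters' processing notes also name Bowtie2, RSEM, DESeq2 and R 3.4.2. Genes, exon lengths and coordinates came from GENCODE M21 (GRCm38), with 35859 of 36066 symbols matched to 1 gene. TPM times exon length gave reads within 0.02 of a whole number for 95.0% to 95.5% of values under 1000 reads, and these served for depth and for voom. The sequences came from RefSeq.

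In R 4.3.3, limma 3.58.1 fitted the 5 group means to log2(TPM + 1) of 27259 genes, with a variance trend (5 residual and 2.81 prior degrees of freedom) and Benjamini-Hochberg adjustment over all genes. Genes were called at an adjusted p under 0.05 and at least 2-fold. On simulated data of pESCs against ESCs over 27259 genes with 200 changed, 164 were called, 157 of them changed (78.5% of the changed). Python 3.11.15 with pandas 2.3.3, numpy 2.4.6 and matplotlib 3.10.9 made the tables and figures.

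The members, lists and markers were chosen with earlier results of these data known. Named genes were the 10 members, up to 4 called genes with the largest change per list and comparison (not all are printed), and 3 genes most like each of the 3 members of widest range. Other settings tried were no filter, a 1 TPM filter, a pseudocount of 0.1, only the compared groups, quantile normalization, median centring over 9024 genes that had 1 TPM or more everywhere, a replicate block, voom on 21409 genes with at least 5 reads in 2 libraries, no fold minimum, and each library left out. The methylation and animal data of the study were not used here.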

Additional observations from a re-analysis of the deposited data

Results flagged for a closer look

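The change from stem cells to PGCLCs passed a test of a difference by origin for 2 genes on the deposited scale (the interaction, limma with Benjamini-Hochberg adjustment). Kdm1a changed by 1.18 more on the log2 scale in pESC-derived than in ESC-derived cells (adjusted p = 0.00352), with 23.2 and 22.1 TPM in pESC-PGCLCs against 10.8 and 10.9 in ESC-PGCLCs. For Kdm5b the difference was 0.89 (adjusted p = 0.0484), as it changed by -0.12 in pESC-derived and by -1.01 in ESC-derived cells. Its level was 8.23 and 9.68 TPM in pESC-PGCLCs against 4.50 and 4.33 in ESC-PGCLCs. Blood markers, which summed to 2902 to 3438 TPM in pESC-PGCLCs and 492 to 562 in ESC-PGCLCs, move the same way, and their part was not tested. Under quantile normalization and median centring the Kdm1a difference was 0.56 and 0.44 (adjusted p = 0.0471 and 0.0656) and that of Kdm5b 0.29 and 0.15 (adjusted p = 0.398 and 0.614).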

How the results depend on the processing

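The count of members called kept within 1.5 times in every comparison under a filter of 1 TPM, no filter and the replicate block. It was 4 for ESC-PGCLCs against ESCs (7 with no fold minimum). For pESC-PGCLCs against pESCs it was 3 (5 with voom, 6 with no fold minimum). For pESC-PGCLCs against ESC-PGCLCs it was 1 (3 with a pseudocount of 0.1 or no fold minimum, 0 under median centring, and 0 to 1 with a library left out, 0 without ESC-PGCLC replicate 1 or 2). For PGCs against ESC-PGCLCs it was 3 (0 under quantile normalization or median centring, 5 with no fold minimum, and 1 to 4 with a library left out, 1 without PGC replicate 1). For the interaction it was 1 (3 with a pseudocount of 0.1 or voom, 2 with the compared groups alone or no fold minimum, 0 under quantile normalization, and 1 to 2 with a library left out, 2 without PGC replicate 1 or 2). It was 0 for pESCs against ESCs and for PGCs against pESC-PGCLCs in every setting. An equal count can hold other members. For pESC-PGCLCs against pESCs, quantile normalization and median centring called Kdm1b higher and Kdm4c and Kdm6b lower, without Kdm1a and Kdm2b. For the interaction, median centring called Kdm4c (-1.01) in place of Kdm1a. The cause of these changes was not tested. No called change of a member turned its direction under any setting, whereas of 70 changes 19 turned under median centring and 15 under quantile normalization, each uncalled.

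Same-numbered libraries deviated together in 1 of 10 pairs of groups (r from -0.0507 to 0.238 over 14839 genes, with a threshold of 0.1). This does not settle whether the numbers pair the libraries, and the main fit did not pair them. The replicate block gave 0, 4, 3, 1, 3, 0 and 1 members called, the same counts as without it. With it, Kdm5b in the interaction and Kdm2b in PGCs against ESC-PGCLCs no longer passed limma's adjusted p (0.067 and 0.0619). For Kdm1b in pESC-PGCLCs against ESC-PGCLCs, limma's adjusted p was 0.0547 with the block and 0.125 without. Depth limits Kdm4a everywhere, and Kdm4b and Kdm6b in ESC-PGCLCs.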
